A study of Homo sapiens with 16 samples.

Results

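The genes described here were those whose RNA was already raised 1.5 h after phorbol ester was added to K562 cells and was still raised at every later time measured, up to 72 h. A gene was taken when it was protein-coding, when its mean level at 6 h was at least 5 CPM (the reads of a gene per 1000000 reads of its library), and when its mean at each of 1.5, 3, 6, 24, 48 and 72 h was at least 3 times its mean at 0 h, with 0.1 CPM added to every mean. Of 35052 genes measured, 19801 were protein-coding, 10115 of these reached the 6 h minimum, and 62 met every ratio. Genes with symbols starting EGR, FOS, JUN, DUSP, SPRY, KLF, NR4A or MUC were set aside, which removed 15 genes and left 47. These values chose the genes, so their levels against 0 h are a description and no test of them is given.

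Phorbol 12-myristate 13-acetate (PMA) imitates the lipid diacylglycerol and switches on protein kinase C, which feeds the MAP kinase cascade. Immediate-early genes answer this cascade through transcription factors that are already present in the cell, and most of them are known as short pulses, because their products and their short-lived mRNAs shut the response down. K562 is an established human leukaemia cell line with erythroid features that PMA pushes towards a megakaryocyte-like state, in which cells stop dividing and adhere.

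The cells were wild type and received 25 nM PMA. They were collected untreated (0 h), in the first hours (0.5, 1.5 and 3 h), at 6 h, and once a day afterwards (24, 48 and 72 h), with fresh medium given after each of the first days. Each time had 2 libraries of ribosome-depleted total RNA, and the 0 h libraries were the control. The labels do not say whether replicates came from separate cultures, so p-values measure the spread between these libraries, which may be technical. Libraries held 27285773 to 54056289 estimated reads, and 3 reads corresponded to about 0.10 CPM at 0 h. Erythroid marker genes (8 of 8 measured, GATA1 and globins among them) summed to 2150 to 2360 CPM at 0 h and 1440 to 1830 CPM at 72 h. Mature megakaryocyte markers (6 of 6 measured) summed to 2.38 to 2.52 CPM at 72 h, with GP9 and PF4 at or near 0 in every library. Fibroblast markers (4 of 4 measured) went from 9.39 to 11.4 CPM at 0 h to 219 to 251 CPM at 72 h, mostly COL1A1, and the part of this in the results was not tested. In bulk RNA, more cells with a transcript and more of it per cell cannot be told apart.

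The 47 genes shared a threshold but not a time course. None had its highest mean before 3 h. The peak was at 3 h for 19 genes, at 6 h for 14, at 24 h for 5, at 48 h for 2 and at 72 h for 7. At 1.5 h the median gene stood at 5.59 times its 0 h mean, but this was 9.60% of its own later peak, and 5 genes had reached 50% of the peak by then. The median ratio was 32.0 at 3 h and 42.4 at 6 h, and then 14.4, 18.7 and 15.3 at 24, 48 and 72 h. At 72 h the median gene kept 43.6% of its peak, 20 genes kept at least 50% and 12 kept under 20%. Starting levels were low: 25 of the 47 had a 0 h mean under 1 CPM and 9 had at least 10 CPM, so many ratios depend on the 0.1 CPM that was added.

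**Figure D1:**
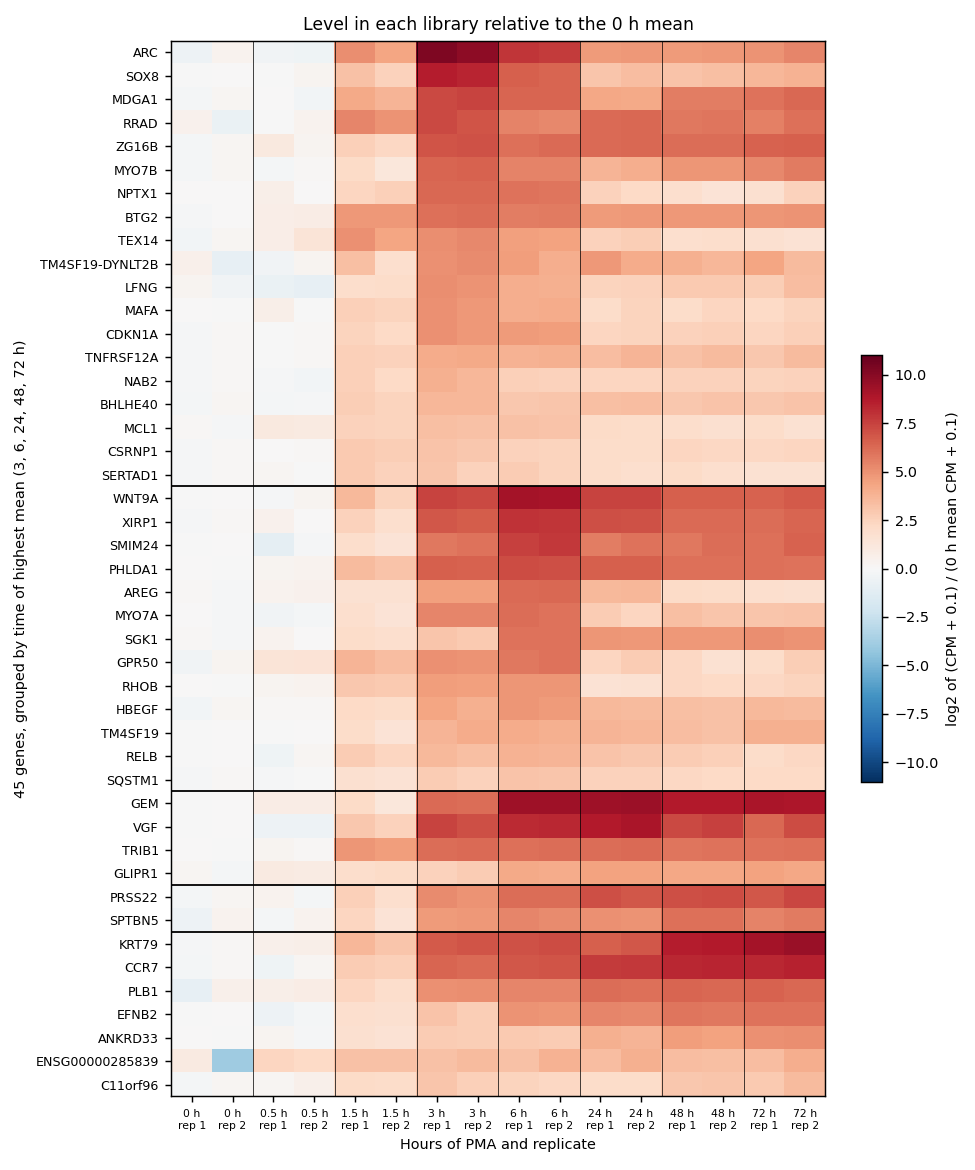
Each row is one of 45 of the 47 genes and each column one of the 16 libraries; colour gives log2 of (CPM + 0.1) over the 0 h mean (CPM + 0.1). Rows are grouped by the time of the highest mean (3, 6, 24, 48 and 72 h from top to bottom).

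Near the threshold lay genes that the rule split finely. RHOB was just inside, with a smallest ratio of 3.10 at 24 h, followed by MYO7A at 3.19 and AREG at 3.22, both at 1.5 h. Just outside were GADD45B at 2.94, FRG1 at 2.92 and HTRA3 at 2.90. On the level at 6 h (CPM + 0.1), MYO7B at 5.02, SPTBN5 at 5.98 and NPTX1 at 6.09 were kept, while CYP19A1 at 4.45, S100A14 at 4.23 and ABCA1 at 4.19 were not.

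Promoter sequence was available for 26 of the 47 genes in RefSeq (GRCh38.p14), from 250 bases before to 50 after the annotated start. It was searched on both strands beside the promoters of 8313 protein-coding genes that reached 5 CPM at 6 h, the 26 among them. Where a gene had several promoters, the first listed was used. The TATA box as TATAAA, on either strand, was present in 5 of 26 (19.2%) against 5.51% of the 8313. The AP-1 site TGANTCA, which FOS and JUN proteins bind, was in 3 (11.5%) against 4.37%, and the cyclic AMP response element TGACGTCA in 2 (7.69%) against 3.67%. AGATAA, read by GATA factors, was in 3 (11.5%) against 4.61%. The ETS letters CCGGAAGT were in 0 of 26 against 10.1%, GCGTGGGCG of EGR proteins in 0 against 1.37%, the SRF CArG box in 0 against 1.07% and the kappaB motif in 0 against 6.23%. With 26 promoters these are counts and not a test, and no match says only that those letters are not in this window.

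The promoters below carry the matches, printed 5′ to 3′ on the gene's strand and ending at the base before the annotated start, with motif letters in capitals. AREG and VGF, which encode secreted peptides, each hold the cyclic AMP element and a TATA box, the latter on the opposite strand (TTTATA) in VGF.
AREG: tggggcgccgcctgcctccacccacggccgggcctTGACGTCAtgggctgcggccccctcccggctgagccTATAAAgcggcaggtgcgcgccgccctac
VGF: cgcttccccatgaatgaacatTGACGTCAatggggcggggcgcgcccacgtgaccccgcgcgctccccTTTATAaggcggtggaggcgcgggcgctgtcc
The AREG stretch is chr4:74445036-74445135 on the plus strand and that of VGF is chr7:101165570-101165669 on the minus strand. Counted from the start, with -1 as the base before it, the cyclic AMP elements begin at -65 and -79 and the TATA letters at -29 and -32.

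TATA letters at about the same place, beginning at -29, were also found for ZG16B (chr16:2830203-2830302, plus strand), which encodes a secreted lectin-like protein. In EFNB2 (chr13:106535663-106535762, minus strand), which encodes the membrane-bound ligand ephrin-B2, they began at -30, on the opposite strand (TTTATA). In SGK1, the fifth gene with these letters, they began at -96, also as TTTATA.
ZG16B: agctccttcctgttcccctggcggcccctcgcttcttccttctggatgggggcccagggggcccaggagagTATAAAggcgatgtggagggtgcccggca
EFNB2: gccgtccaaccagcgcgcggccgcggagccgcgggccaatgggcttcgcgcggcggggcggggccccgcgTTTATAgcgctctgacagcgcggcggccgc
In KRT79 (chr12:52834312-52834411, minus strand), a keratin gene, the letters AGATAA began at -31.
KRT79: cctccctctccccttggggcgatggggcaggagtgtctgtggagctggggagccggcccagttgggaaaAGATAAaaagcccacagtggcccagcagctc

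The 3 promoters with an AP-1 match belong to XIRP1, an actin-binding protein of striated muscle (chr3:39192596-39192845, minus strand), TM4SF19, a tetraspan membrane protein (chr3:196338389-196338638, minus strand), and PLB1, a phospholipase (chr2:28495860-28496059, plus strand). XIRP1 also has AGATAA at -31, the same place as in KRT79. The AP-1 letters began at -238, -214 and -157 in these genes. The PLB1 stretch lies inside the span over which the gene's reads were summed (chromosome 2, 28457145 to 28643788). Whether PLB1 transcripts began at this start was not tested.
XIRP1: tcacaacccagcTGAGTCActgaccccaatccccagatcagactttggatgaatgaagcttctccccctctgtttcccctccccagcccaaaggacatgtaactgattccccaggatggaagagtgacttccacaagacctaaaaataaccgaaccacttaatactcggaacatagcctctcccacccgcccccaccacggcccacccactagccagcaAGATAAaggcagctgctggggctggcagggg
TM4SF19: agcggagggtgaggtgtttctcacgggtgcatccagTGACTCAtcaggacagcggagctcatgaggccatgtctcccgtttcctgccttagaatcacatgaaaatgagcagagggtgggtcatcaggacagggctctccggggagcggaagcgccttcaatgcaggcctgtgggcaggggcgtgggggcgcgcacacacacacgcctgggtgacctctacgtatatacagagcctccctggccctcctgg
PLB1: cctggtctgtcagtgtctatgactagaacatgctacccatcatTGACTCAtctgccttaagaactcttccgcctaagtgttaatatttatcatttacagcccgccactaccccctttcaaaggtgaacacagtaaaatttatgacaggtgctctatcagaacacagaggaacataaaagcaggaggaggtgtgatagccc
The promoters of the 26 genes had a median GC content of 66.5%, against 65.3% for the comparison promoters.

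The transcription regulators among the 47 were led by BHLHE40, a basic helix-loop-helix repressor (GRCh38 chromosome 3, 4979116 to 4985323). Its libraries held 78.0 and 101 CPM at 0 h, 77.3 and 81.3 at 0.5 h, 599 and 500 at 1.5 h, then 1139 and 1126 at 3 h. Later they held 716 and 741 CPM at 6 h, 872 and 964 at 24 h, 715 and 788 at 48 h, then 689 and 785 at 72 h. All libraries from 1.5 h on lay above both earlier times, and those at 3 h were the highest. NAB2, which binds EGR proteins and represses their targets, had 12.8 and 15.3 CPM at 0 h, 86.1 and 66.1 at 1.5 h, 210 and 175 at 3 h, then 77.5 and 81.8 at 72 h. RELB, a subunit of NF-kB, was the only regulator of this group with its peak at 6 h, at 21.0 and 19.3 CPM from 1.28 and 1.44 at 0 h, and it stood at 5.78 and 6.99 CPM at 72 h. MAFA and SOX8, DNA-binding factors known from pancreatic beta cells and from neural crest and testis, peaked at 3 h at 26.0 and 21.7 CPM and at 51.7 and 45.6 CPM. SOX8 had 1 read in each 0 h library (0.0338 and 0.0342 CPM). By 24 h it had come down to 1.03 and 1.33 CPM, still above 0 h. CSRNP1 and SERTAD1, nuclear proteins linked to transcription, were closest to their peak at 1.5 h, with 250 and 220 CPM and with 67.3 and 54.5 CPM.

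The next genes are on the list of signalling feedback and early response. BTG2, an antiproliferative protein that promotes mRNA decay (chromosome 1, 203305491 to 203309602), had 11.2 and 12.7 CPM at 0 h, 20.2 and 21.6 at 0.5 h, 335 and 325 at 1.5 h, then 810 and 844 at 3 h. It then held 591 and 620 CPM at 6 h, 305 and 324 at 24 h, 326 and 331 at 48 h, then 342 and 361 at 72 h. Each time after 0 h lay above both 0 h libraries, and from 24 h on the level was about that of 1.5 h. TRIB1, a pseudokinase scaffold for protein degradation, had 6.67 and 6.46 CPM at 0 h, 194 and 166 at 1.5 h, 466 and 488 at 3 h, and 404 to 510 CPM in all 8 libraries from 6 to 72 h.

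MCL1, a BCL2 relative that protects from apoptosis, was the most abundant of the 47 per length, at 1151 ± 79.2 TPM (transcript abundance corrected for length; SD, n = 2) at 6 h. It was already expressed before PMA, at 324 and 271 CPM, and held 1715 and 1591 CPM at 1.5 h, 3002 and 2769 at 3 h, then 1174 and 938 at 72 h. CDKN1A, the p21 inhibitor of cyclin-dependent kinases, had 13.7 and 15.7 CPM at 0 h, 80.1 and 65.7 at 1.5 h, 492 and 398 at 3 h, then 381 and 353 at 6 h. At 24, 48 and 72 h its 6 libraries held 76.8 to 92.8 CPM, between the 0 h and the 6 h libraries with no overlap. PHLDA1, a pleckstrin-homology protein induced by growth factors, had 9.33 and 8.38 CPM at 0 h, 99.1 and 79.6 at 1.5 h, 1331 and 1254 at 6 h, then 612 and 561 at 72 h. SGK1, a kinase related to AKT, came later, at 21.4 and 19.3 CPM at 1.5 h, 42.5 and 39.0 at 3 h, then 337 and 325 at 6 h. ARC, a capsid-like protein known from synapses, had a brief peak, with 0.338 and 0.718 CPM at 0 h, 22.3 and 12.3 at 1.5 h, 764 and 579 at 3 h, then 16.4 and 16.8 at 24 h.

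**Figure D2:**
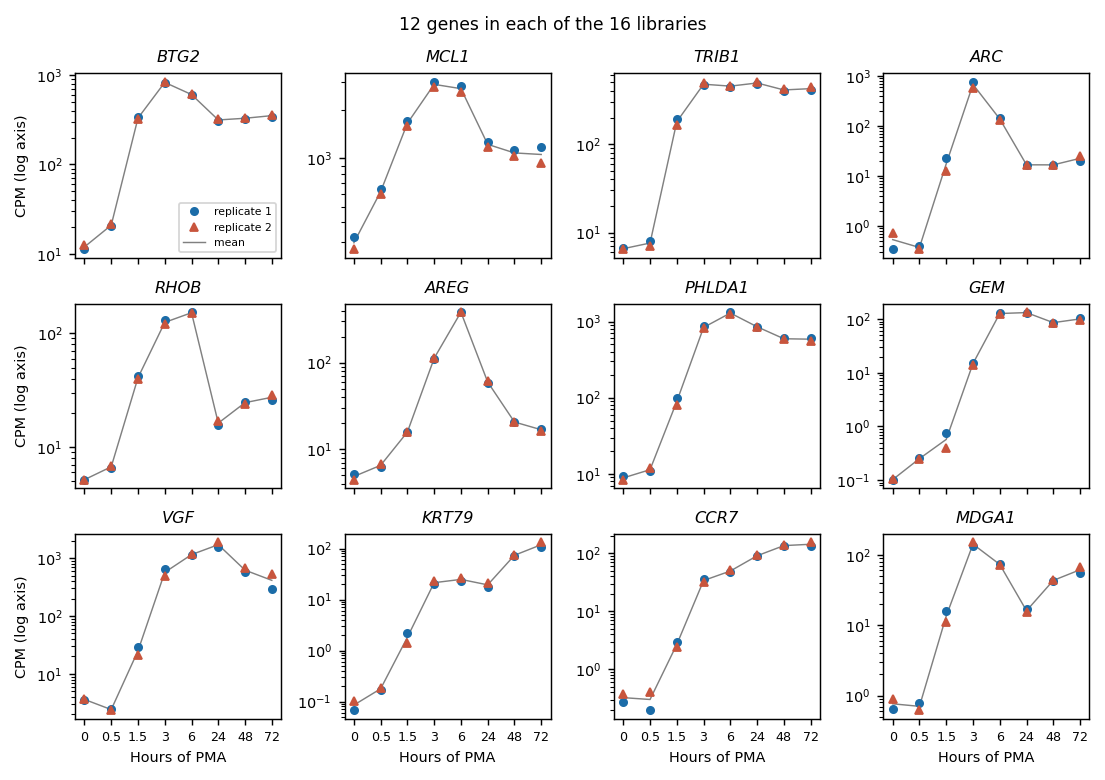
Each panel shows 1 gene, with hours of PMA on the horizontal axis (evenly spaced, not to scale) and CPM on a log axis; circles and triangles are replicates 1 and 2 and the line is their mean. TRIB1 lies between 404 and 510 CPM from 6 h on, ARC, RHOB and AREG peak and come down, VGF peaks at 24 h, and KRT79 and CCR7 are highest at 72 h.

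3 small GTP-binding proteins were present. RRAD, an RGK-family GTPase that inhibits calcium channels, had the highest 1.5 h ratio of the 47, at 36.8 times 0 h, with 0.203 and 0.0342 CPM at 0 h and 9.22 and 6.66 at 1.5 h. Its level was 32.9 and 26.8 CPM at 3 h, 9.56 and 8.26 at 6 h, then 16.6 and 17.1 at 24 h, so that the libraries of 6 h lay below those of both neighbouring times. GEM, of the same family, had 3 reads in each 0 h library and 0.756 and 0.388 CPM at 1.5 h, then 127 and 127 CPM at 6 h and 104 and 98.0 at 72 h. RHOB, an endosomal small GTPase that is quickly turned over, had 5.17 and 5.16 CPM at 0 h, 42.0 and 39.4 at 1.5 h, 154 and 150 at 6 h, then 15.7 and 16.8 at 24 h. The 24 h libraries of RHOB were the lowest after 0.5 h, and those of 72 h, at 26.1 and 28.6 CPM, lay above them.

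Secreted and membrane-bound ligands were also among the 47. HBEGF and AREG, both ligands of the EGF receptor, peaked at 6 h. HBEGF held 0.981 and 1.44 CPM at 0 h, 37.0 and 32.8 at 6 h, then 15.8 and 14.6 at 72 h. AREG held 5.25 and 4.45 CPM at 0 h, 15.8 in both libraries at 1.5 h, 382 and 384 at 6 h, 57.7 and 61.8 at 24 h, then 17.4 and 16.3 at 72 h. WNT9A, a Wnt ligand, had 0.237 and 0.274 CPM at 0 h, 207 and 189 at 6 h, then 31.6 and 37.9 at 72 h. VGF, a precursor of neuropeptides, had 3.55 and 3.69 CPM at 0 h, 1553 and 1868 at 24 h, then 293 and 536 at 72 h. EFNB2 had a higher mean at each time after 0.5 h than at the one before, from 1.69 and 1.52 CPM at 1.5 h to 30.5 and 30.0 at 72 h. NPTX1, a neuronal pentraxin, had no read in either 0 h library and in 1 of the 2 at 0.5 h, 8.0 CPM in both libraries at 3 h, then 0.237 and 0.468 at 72 h.

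Among receptors and membrane proteins, CCR7, the chemokine receptor that guides lymphocytes and dendritic cells to lymph nodes, had 0.271 and 0.376 CPM at 0 h, 2.91 and 2.45 at 1.5 h, 47.7 and 51.3 at 6 h, then 133 and 154 at 72 h. T cell markers (4 of 4 measured) summed to 16.5 to 16.8 CPM at 72 h against 7.44 to 9.61 at 0 h. Nearly all of this was CD3D, at 16.2 and 16.4 CPM at 72 h and 7.31 and 9.44 at 0 h. CD3E, CD2 and CD5 were at or near 0, and the part of these markers in the CCR7 level was not tested. TNFRSF12A, the receptor of TWEAK, had 8.15 and 9.57 CPM at 0 h, 156 and 158 at 3 h, then 69.2 and 97.3 at 72 h. GPR50, an orphan receptor related to melatonin receptors, had 0 and 2 reads at 0 h, 9 in each library at 0.5 h, then 7.29 and 8.41 CPM at 6 h. MDGA1, a glycolipid-anchored adhesion protein of neurons, was high at both ends, with 133 and 150 CPM at 3 h, 16.8 and 15.3 at 24 h, then 54.6 and 67.9 at 72 h. LFNG, a glycosyltransferase that modifies Notch, peaked at 3 h at 16.4 and 14.8 CPM.

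Hydrolases were present as well. PRSS22, a serine protease, had 0 and 1 read at 0 h, no read in 1 of the 2 libraries at 0.5 h, then 15.8 and 13.2 CPM at 24 h. Most of its reads from 3 h on were assigned to transcripts annotated as keeping an intron or as targets of mRNA decay. Its leading transcript at 24 h, of the first kind, took 25.2% and 35.4% of them. PLB1 reached 17.0 and 14.9 CPM at 72 h.

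Cytoskeletal genes were KRT79, XIRP1, the myosins MYO7A and MYO7B, and the spectrin SPTBN5. KRT79, a keratin of sebaceous epithelium, had 2 and 3 reads at 0 h, 2.24 and 1.40 CPM at 1.5 h, 23.1 and 26.5 at 6 h, a mean of 19.4 ± 2.00 (SD, n = 2) at 24 h, then 106 and 132 at 72 h. The epithelial markers KRT5 and KRT14 were at or near 0, and the epithelial list (4 of 4 measured) summed to 47.8 to 58.7 CPM at 0 h and 18.9 to 20.1 CPM at 72 h. XIRP1 peaked at 6 h, at 92.7 and 88.1 CPM. MYO7A had 44.6 and 38.9 CPM at 6 h and 4.08 and 3.03 at 24 h, while MYO7B, with no read in 1 library each at 0 and 0.5 h, had 9.79 and 10.2 CPM at 3 h, 1.45 and 1.72 at 24 h, then 4.37 and 5.96 at 72 h.

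The remaining genes have mixed roles. SQSTM1, the autophagy receptor p62, came next after MCL1 in mean CPM, with 142 and 174 CPM at 0 h, 1421 and 1329 at 6 h, then 719 and 728 at 72 h. GLIPR1, a CAP-family protein induced by p53, had 2.40 and 1.75 CPM at 0 h, 4.33 and 4.04 at 0.5 h, 40.1 and 37.4 at 6 h, then 47.2 and 41.1 at 72 h. TEX14, an intercellular bridge protein of germ cells, reached 13.5 and 8.18 CPM by 1.5 h and was at 1.32 and 1.15 at 72 h. ANKRD33, C11orf96 and SMIM24 have no role stated here. ANKRD33 and C11orf96 peaked at 72 h, at 30.9 and 34.3 CPM and at 77.4 and 114 CPM, and SMIM24 at 6 h, at 64.8 and 78.5 CPM. Estimates for 2 entries are uncertain because they share sequence with other genes: the readthrough TM4SF19-DYNLT2B overlaps TM4SF19, and ENSG00000285839 is 1 transcript that overlaps TXNDC12 and KTI12 and had 2.73 CPM in one 0 h library and 0 in the other.

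Per length, levels at 6 h spanned from SPTBN5 at 1.19 ± 0.164 TPM and MYO7B at 1.82 ± 0.0969 TPM to MCL1, with SQSTM1 at 1012 ± 71.5, VGF at 739 ± 82.3, AREG at 534 ± 23.5 and TM4SF19 at 471 ± 56.3 TPM below it (SD, n = 2). The neighbours MCL1 and SQSTM1, and AREG and TM4SF19, differed by less than 2 SD, taking the larger SD of each pair.

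At 0.5 h, a time the rule did not use, few of the 47 were called as changed, and few of all genes were. The comparison shares its 0 h libraries with the rule. By edgeR's quasi-likelihood test with Benjamini-Hochberg adjustment over 17559 genes, 3 of 47 were called higher and 0 lower, against 0.165% of all genes called higher and 0.00570% called lower, and 12 of 47 had an unadjusted p under 0.05, LFNG being the only one of them lower (-1.11, SE 0.43). DESeq2 called 0 lower as well. The 3 were MCL1 (641 and 598 CPM; log2 fold change 1.07, SE 0.13, adjusted p = 0.00225), BTG2 (0.82, SE 0.10, adjusted p = 0.00235) and GLIPR1 (1.03, SE 0.17, adjusted p = 0.0213), each higher in both libraries than in both 0 h libraries. The call of GLIPR1 was lost without 0 h replicate 2 (adjusted p = 0.32), without 0.5 h replicate 1 (0.264) and without 0.5 h replicate 2 (0.103). Without 0 h replicate 1 the count of genes called higher was 6, and in a fit of the 0 and 0.5 h libraries alone it was 0.

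The median log2 fold change of the 47 at 0.5 h was 0.22 and that of all genes 0, with 0.31 within replicate 1 and 0.06 within replicate 2. In 17 genes both 0.5 h libraries lay above both 0 h libraries and in 5 below. The share of all genes doing so was not counted, nor that with an unadjusted p under 0.05. Both counts therefore only describe the 47 and are no result about them. By ratio the highest at 0.5 h were ENSG00000285839 at 4.83, GPR50 at 2.73, TEX14 at 2.16, MCL1 at 2.08 and GLIPR1 at 1.97; the first 3 were not called. Across 9983 genes the fold change at 0.5 h correlated with transcript GC content (Pearson r = -0.77), genes not being independent replicates, and the difference between the 0 h libraries did so too (r = -0.74). Of the 15 genes set aside by symbol, 11 were called higher at 0.5 h.

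Between 1.5 and 6 h the rise went on. 42 of 47 genes were called higher at 6 h than at 1.5 h and 0 lower (edgeR, adjusted; 0 lower also at an unadjusted p under 0.05 and by DESeq2), where 24.1% of all genes were called higher and 26.3% lower. The rule asked for a level at 6 h and not at 1.5 h, which favours this direction. The median log2 fold change was 2.71 (2.52 within replicate 1 and 2.90 within replicate 2), against 0.02 for all genes. GEM rose most, by 8.06 (SE 0.18, adjusted p = 2.35e-12), then WNT9A by 6.34 (SE 0.24, adjusted p = 1.31e-10) and SMIM24 by 6.33 (SE 0.26, adjusted p = 2.56e-10). The 5 without a call were RRAD (0.44, SE 0.22), ENSG00000285839 (0.57, SE 0.53), SERTAD1 (0.18, SE 0.18), TEX14 (-0.03, SE 0.22) and CSRNP1 (-0.06, SE 0.12), and scaled to library totals CSRNP1 was called lower (-0.33, adjusted p = 0.0153). That scaling moved the median of all genes to -0.25 and the share of higher calls among all calls from 47.8 to 31.1%.

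From 6 to 24 h most of the 47 came down, though none to its 0 h level by the terms of the rule. 30 genes were called lower and 6 higher (edgeR, adjusted), against 25.8% and 30.8% of all genes; the 6 h minimum of the rule favours falls here. The median was -0.72 (-0.76 and -0.67 within replicates 1 and 2), and 0 for all genes. NPTX1 fell by 3.94 on the log2 scale (SE 0.32, adjusted p = 4.81e-07), MYO7A by 3.68 (SE 0.15), GPR50 by 3.55 (SE 0.32), SOX8 by 3.41 (SE 0.21) and RHOB by 3.33 (SE 0.10, adjusted p = 5.31e-11). Those that rose included ANKRD33 by 0.88 (SE 0.14, adjusted p = 0.000117), RRAD by 0.81 (SE 0.21), CCR7 by 0.76 (SE 0.13), PRSS22 by 0.70 (SE 0.23) and PLB1 by 0.62 (SE 0.22). PLB1's call was lost with any of the 4 libraries left out (adjusted p = 0.0904 to 0.125) and with counts derived from TPM (0.29, adjusted p = 0.411). PRSS22's was lost with 3 of them left out (adjusted p = 0.0787 to 0.0964) and with GC trends removed (0.38, adjusted p = 0.101). RRAD's was lost without 6 h replicate 2 (adjusted p = 0.0552), where 3 genes were called higher. Of the 7 genes on the list of signalling feedback and early response, CDKN1A fell by 2.33 (SE 0.15), ARC by 3.16 (SE 0.24), SGK1 by 1.30 (SE 0.12), MCL1 by 1.27 (SE 0.13), BTG2 by 1.06 (SE 0.09) and PHLDA1 by 0.72 (SE 0.11). TRIB1 had a difference of 0.00 (SE 0.10) and no call. Both EGF receptor ligands fell, AREG by 2.79 (SE 0.10) and HBEGF by 1.33 (SE 0.17).

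**Figure D3:**
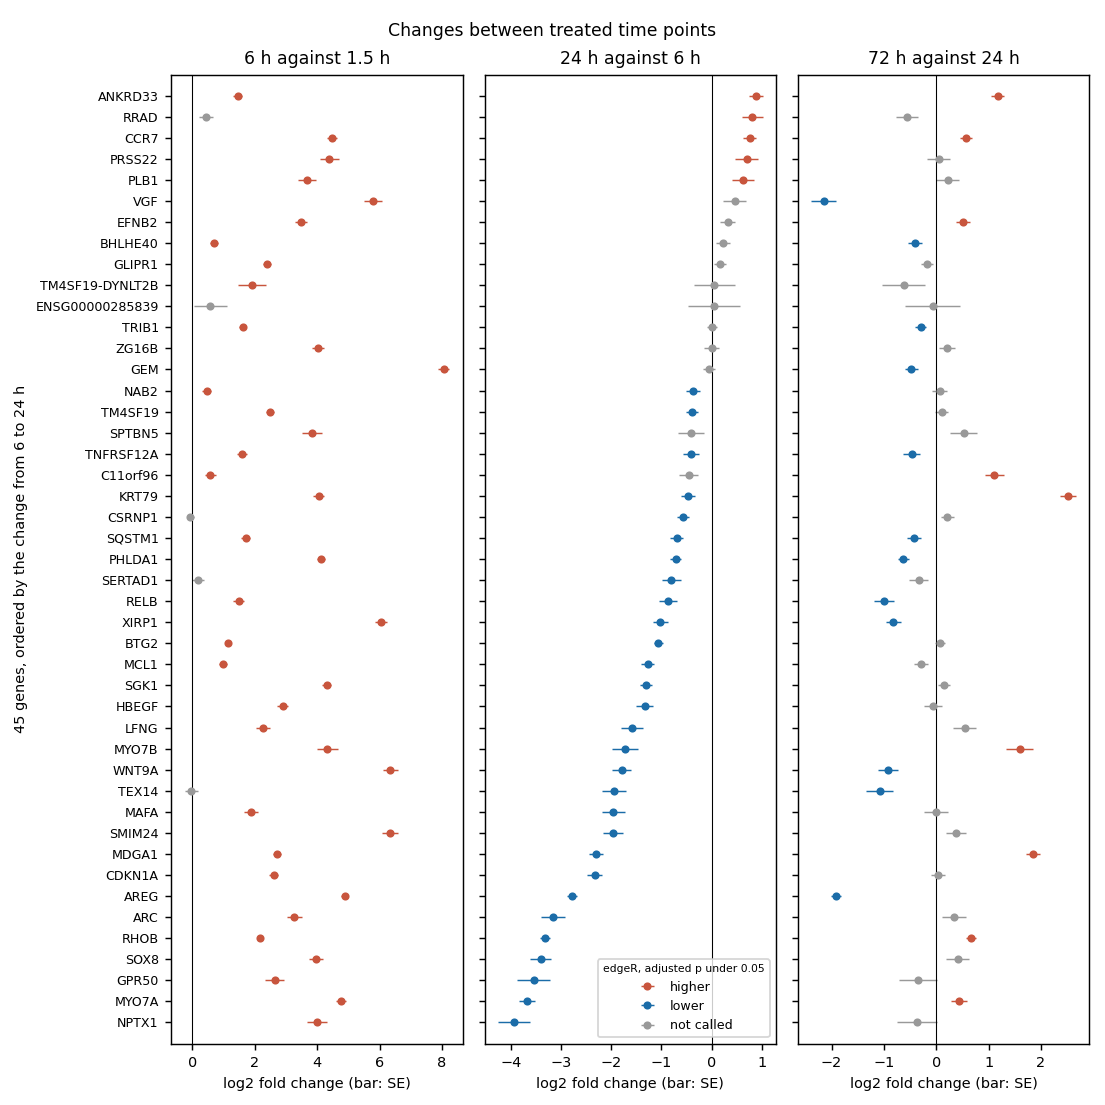
Points are log2 fold changes of 45 of the 47 genes between treated times, with bars of 1 SE, from the edgeR fit of all 16 libraries; red is called higher, blue called lower and grey not called. Most genes are called higher from 1.5 to 6 h and lower from 6 to 24 h, and from 24 to 72 h calls go both ways.

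From 24 to 72 h the group split. 9 genes were called higher and 13 lower (edgeR, adjusted), against 13.9% and 12.4% of all genes, and 25 had no call. The 13 became 7 without 24 h replicate 2 and 8 without 72 h replicate 2. The median was 0.02 and that of all genes 0. KRT79 rose by 2.52 (SE 0.15, adjusted p = 7.62e-08), MDGA1 by 1.84 (SE 0.13), MYO7B by 1.59 (SE 0.26), ANKRD33 by 1.17 (SE 0.13) and C11orf96 by 1.11 (SE 0.19). Smaller rises were those of RHOB at 0.66, CCR7 at 0.57, EFNB2 at 0.51 and MYO7A at 0.43, the last with -0.07 when counts were derived from TPM. Among the falls, VGF fell by 2.15 (SE 0.24), AREG by 1.92 (SE 0.10), TEX14 by 1.08 (SE 0.26) and RELB by 1.00 (SE 0.19). MDGA1, MYO7A, MYO7B and RHOB had been among the genes that fell from 6 to 24 h. KRT79 had fallen by 0.47 from 6 to 24 h (SE 0.14, adjusted p = 0.0139), a call that was lost with library totals (adjusted p = 0.0632). TRIB1 was called lower (-0.30, SE 0.10, adjusted p = 0.0355), a call that was lost, among other settings, with RLE size factors (adjusted p = 0.0779), with library totals (adjusted p = 0.0977) and without 24 h replicate 2 (-0.17, adjusted p = 0.455). BTG2 (0.07, SE 0.09) and CDKN1A (0.03, SE 0.14) had no call.

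Gene lists around these pathways showed how related genes moved. Members of the 47 are left out of these counts, because the rule chose them on the same contrasts. The fold change at 1.5 h against 0 h also correlated with transcript GC content across 9983 genes (Pearson r = -0.43). The part of this in the counts was not tested. Of the 21 other tested genes of signalling feedback and early response, 13 were called higher and 1 lower at 1.5 h against 0 h, then 18 and 1 at 72 h, where all genes stood at 9.05% and 8.05%, and at 31.7% and 26.9%. Their median was 0.82 at 1.5 h and 1.77 at 72 h. Of 19 NF-kB targets besides RELB, 12 were higher and 1 lower at 1.5 h, then 12 and 4 at 72 h. Of 32 transcription regulators besides BHLHE40 and NAB2, 6 were higher and 4 lower at 1.5 h, then 19 and 6 at 72 h. Of 18 growth factors and cytokines besides HBEGF and AREG, 3 were higher and 0 lower at 1.5 h, but 17 and 1 at 72 h. Of 16 other genes of the plasminogen system and matrix proteases, 4 were higher and 0 lower at 1.5 h and 13 and 1 at 72 h.

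None of the 47 was in the lists of adhesion genes, SRF and actin genes, megakaryocyte genes or eicosanoid genes. At 1.5 h these had 1 of 18, 7 of 19, 0 of 15 and 1 of 11 tested genes called higher, and at 72 h 14, 10, 9 and 6. From 6 to 72 h, where 31.6% of all genes were called higher and 25.6% lower, adhesion genes had 13 higher and 2 lower and megakaryocyte genes 10 and 2, while the 21 other signalling feedback genes had 7 higher and 10 lower. The 19 other NF-kB targets had 4 higher and 10 lower, the 32 other regulators 16 and 10, and the 19 SRF and actin genes 4 and 7. Growth factors and cytokines had 9 and 6 of 18 others, protease genes 9 and 3 of 16 others, and eicosanoid genes 6 and 2 of 11. Of the 47 themselves 7 were higher and 30 lower over that interval, which the 6 h minimum of the rule favours.

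The 47 genes were compact. The median span in the genome was 11220 bp against 34430 bp for the 10115 protein-coding genes with 5 CPM at 6 h, and 21 of them (44.7%) were shorter than 10000 bp against 16.6%. The leading transcript had a median of 5 exons against 9, and 18 genes (38.3%) had 3 exons or fewer against 13.9%. Median transcript GC content was 57.3% against 47.8%. A measured gene overlapped 13 of the 47, and strand is not known to have been used in the assignment of reads, so reads of such pairs may not be told apart.

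They lay on 16 chromosomes, and some were neighbours. 8 of 47 had another of the 47 within 100 kb, against 1.00% of the other 10068 genes (101), and 17 had one within 1000 kb, against 7.56% (761). CSRNP1 and XIRP1 were 28648 bp apart on chromosome 3, and ZG16B and PRSS22 13142 bp on chromosome 16. Another pair was TM4SF19 with its overlapping readthrough, which is no separate locus. These pairs did not peak together: CSRNP1 was highest at 3 h and XIRP1 at 6 h, and ZG16B at 3 h and PRSS22 at 48 h.

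Because the values were deposited per transcript, the share of each gene's reads in transcripts annotated as keeping an intron could be followed. This measure was chosen after isoform values had been seen, and it rests on the estimated division of reads among transcripts. Among genes with such transcripts, 18 of the 47 and 6009 protein-coding genes in all had at least 20 reads in each of the 12 libraries from 1.5 h on. In 16 of the 18, both libraries at 1.5 h had a higher share than both at 6 h, which was so for 16.9% of all 6009 genes; the reverse held in 0 of the 18 and in 44.0% of all. Against 72 h the counts were 16 and 0, with 34.3% and 21.5% of all genes. The rule asked for a rise at 1.5 h in all reads of a gene, those of retained-intron transcripts included. This can favour a high share at 1.5 h in the 18 genes, and its part in the counts was not tested.

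The median share over the 18 genes was 14.5% and 16.3% in the 1.5 h libraries, 6.12% and 6.91% at 3 h, 6.78% and 4.13% at 6 h, then 2.83% and 2.71% at 72 h. In the other 5991 genes it was 4.02 to 6.35% in every library from 1.5 to 72 h. With the reads of the 18 genes summed, so that abundant genes weigh most, the share was 9.40% and 9.30% at 1.5 h and 8.10% and 7.71% at 6 h. Summed in the same way, the other 5991 genes had 8.77% and 8.05% at 1.5 h and 8.88% and 8.78% at 6 h. By this measure the 18 genes were close to the others. SOX8 had 75.6 ± 3.64% at 1.5 h and 13.9 ± 1.24% at 3 h (SD, n = 2), but 60.4 ± 7.73% at 72 h; it had 39 and 23 reads at 1.5 h and 62 and 57 at 72 h. TNFRSF12A had 57.6 ± 4.63% at 1.5 h, against 26.0 ± 4.61% by 3 h and 21.3 ± 3.25% by 72 h. MYO7A went from 42.0 ± 5.64% to 19.2 ± 4.25% and, at 6 h, 5.04 ± 0.0116%. RELB went from 17.4 ± 1.16% to 1.65 ± 0.371% at 72 h, and NAB2 from 5.59 ± 0.282% to 0.821 ± 0.206% at 3 h. In ZG16B, at 9.22 and 0% at 1.5 h, the libraries of both times overlapped.

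**Figure D4:**
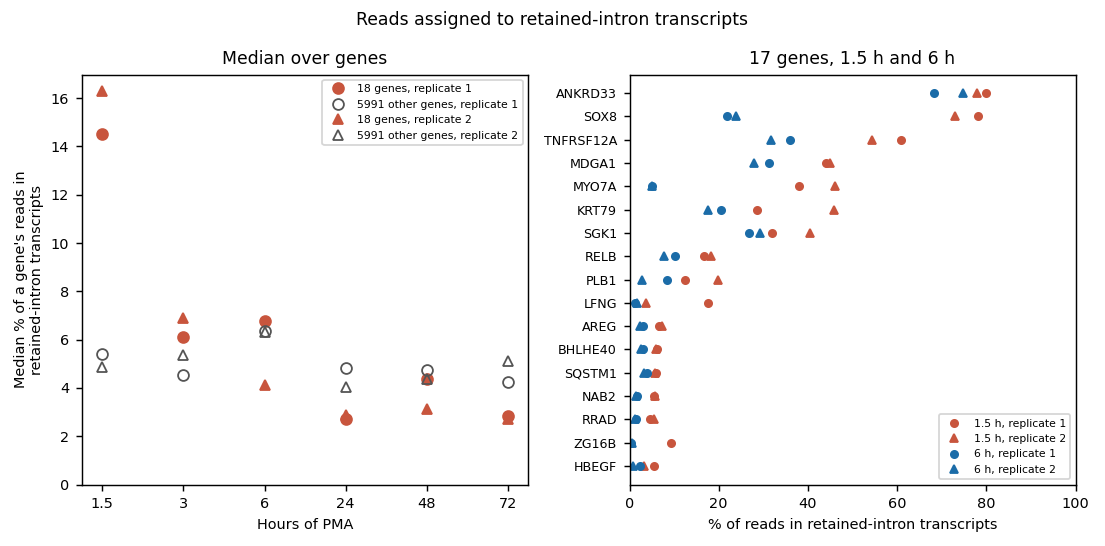
Left, the median share of a gene's reads assigned to retained-intron transcripts in each library from 1.5 to 72 h, for 18 of the 47 genes (filled) and 5991 other genes (open); right, the share in each of 17 of the 18 genes at 1.5 h (red) and 6 h (blue), with circles and triangles for replicates 1 and 2. The 18 genes stand at 14.5 and 16.3% at 1.5 h and at 6.91% or less in every later library.

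Apart from introns, 33 of the 47 had the same leading transcript at every time from 1.5 to 72 h and 14 had more than one. TM4SF19 changed in both replicates. A protein-coding transcript of it took 5.28% and 0% of its reads at 1.5 h but 42.8% and 40.0% at 24 h, while the one that led at 1.5 h went from 58.6% and 65.0% to 26.9% and 26.1%. VGF, by contrast, differed between replicates at most times, with its leading transcript at 65.1% and 90.7% at 6 h, so its transcripts were not compared between times.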

How the data were processed

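RNA of 16 libraries (8 times, 2 each) was quantified per transcript by the authors, with Trim Galore 0.4.3 and Salmon named in the submitters' processing notes, which also name the builds hg19 and hg38 with no role. The deposited tables give estimated counts, which carry no normalization per the file headers, and TPM, the deposited abundance per length. Of 177456 transcripts, 167027 (94.1%) matched GENCODE release 29 (GRCh38) and were summed per gene; CPM divides by the library's summed reads.

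Rounded gene counts were fitted with edgeR 4.0.16 (limma 3.58.1, R 4.3.3) over all 16 libraries, with TMM factors, filterByExpr (17559 genes, all 47 members among them), the quasi-likelihood test and Benjamini-Hochberg adjustment, called under 0.05. Standard errors derive from that test; none is given where a group had no reads. In counts simulated for 24 h against 6 h over 17074 genes it recovered 52% of 2-fold and 80% of 4-fold changes, with 7 false among 139 calls. DESeq2 1.42.0 was an alternative. Reads from PCR are not independent molecules, so the floor of 3 reads covers counting error only.

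The genes and lists were chosen with earlier results of these data known. Genes named were those highest in 1.5 h ratio (8), mean CPM (8) and 0.5 h ratio (5), the largest changes between treated times (3 or 5 each way), those on a list, at the threshold or with a library at 0. CSRNP1, SERTAD1, TM4SF19, TM4SF19-DYNLT2B, TNFRSF12A, MAFA, ZG16B, XIRP1, PLB1, LFNG and EFNB2 were added after their values were seen. Some items that these rules give are not reported here, though counts include them. Replicate numbers were not used to pair libraries in the main fit, though they marked a difference between libraries. Transcript length less the deposited effective length (median over long transcripts) was 210 to 221 nt in replicate 1. In replicate 2 it was 229 to 248 nt, apart from the 0 h library at 199 nt. The part of this in the results was not tested.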

Additional observations from a re-analysis of the deposited data

How the results depend on the processing

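Counts of the 47 genes called higher at 0.5 h were 3, but 7 with no low-count filter, 5 with GC trends removed, 0 in a fit of the 2 times alone, and 2 to 6 when 1 library was left out. From 1.5 to 6 h, scaling to library totals gave 1 gene called lower and a median of 2.43. A minimum of 10 counts in every library, which tests fewer genes, gave 25 higher and a median of 2.16 there, 2 higher and a median of -0.81 from 6 to 24 h, and 5 higher and 5 lower from 24 to 72 h. From 6 to 24 h the median was -0.60 with library totals and -0.88 with GC trends removed; leaving out 1 library gave medians of -0.79 to -0.68 and 3 to 5 genes higher (3 without 6 h replicate 2). From 24 to 72 h the median was 0.05 with RLE factors, 0.10 with library totals, 0.09 with GC trends removed and 0.05 with DESeq2; leaving out 1 library gave -0.05 to 0.14, with 7 to 12 lower (7 without 24 h replicate 2, 8 without 72 h replicate 2). The causes were not tested. Library totals moved the share of higher calls among all genes from 54.4 to 65.5% from 6 to 24 h and from 52.7 to 65.1% from 24 to 72 h (59.9% with RLE).

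The rule gave 88 genes at 2 times 0 h, 28 at 4 times, 24 with 1 CPM added, 53 with TMM-scaled libraries, 60 with a 6 h minimum of 1 CPM and 31 with 20 CPM; replicate 1 alone gave 55 (45 shared) and replicate 2 alone 46 (36 shared). Of 103 single-gene calls under the alternatives, 1298 of 1403 values kept the call, 104 lost it and 1 reversed, MYO7A from 24 to 72 h (-0.07). Retained-intron counts, with alternatives chosen after seeing the data, were 13 of 14 genes at 50 reads, 18 of 21 against 6 h and 19 of 21 against 72 h at 10 reads, and 17 of 18 in each replicate alone, where 31.1 to 64% of all genes did so.

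Replicate numbers deviated together little over 28 pairs of times (correlations -0.12 to 0.21, 14 over 0.1). With the replicate block 3 genes were higher at 0.5 h, 42 from 1.5 to 6 h, 6 higher and 30 lower from 6 to 24 h, and 9 and 14 from 24 to 72 h.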
